A study of Homo sapiens with 6 samples.

Results

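The 10 genes described here encode regulators of mTORC1, the growth-promoting kinase complex that sits on the lysosome: the sestrins SESN1, SESN2 and SESN3, the stress-induced inhibitor DDIT4, the mTOR-bound inhibitor DEPTOR, the Rag GTPases RRAGC and RRAGD, and folliculin (FLCN) with its partners FNIP1 and FNIP2. They were taken by symbol from a deposited gene table, and all 10 were found among its 19021 genes. RNA sequencing was run on 6 libraries of Huh7, an established line of human hepatocellular carcinoma cells with the genotype label WT. Of these, 3 came from cells given DMSO, the solvent, and 3 from cells given carfilzomib, an irreversible proteasome inhibitor, both for 24 h. The labels give no dose, and all results come from 1 cell line.

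Amino acids, energy and growth factors reach mTORC1 by separate routes. Amino acids act through heterodimers of RagA or RagB with RagC or RagD, which bring the complex to the lysosome, and sestrins, the best known of which binds leucine, hold back the GATOR2 complex on this route. DDIT4, also known as REDD1, acts through the TSC complex, which turns off RHEB, the direct activator of mTORC1. Folliculin with FNIP1 or FNIP2 stimulates GTP hydrolysis by RagC and RagD, which lets mTORC1 phosphorylate the transcription factors TFEB and TFE3 and keep them out of the nucleus. These factors in turn are known to induce RRAGC, RRAGD, FLCN and the FNIP genes, whereas ATF4 is known to induce SESN2 and DDIT4, and FOXO factors to induce SESN3.

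The promoters of 4 genes, 3 that rose and 1 that fell, are shown because they hold the short sequence ACGTG. In RRAGC and FNIP1 it lies within CACGTG, which TFEB and TFE3 are known to bind, and in FNIP2 and DDIT4 it does not. Each window runs from 250 bases before to 50 bases after an annotated start site, from RefSeq on GRCh38.p14, 5′ to 3′ on the gene's own strand, and capitals mark ACGTG on either strand. RRAGC (chr1:38859723-38860022, minus strand) and FNIP1 (chr5:131796968-131797267, minus strand) rose with carfilzomib, as did FNIP2 (chr4:158768776-158769075, plus strand), while DDIT4 (chr10:72273674-72273973, plus strand) fell.
RRAGC: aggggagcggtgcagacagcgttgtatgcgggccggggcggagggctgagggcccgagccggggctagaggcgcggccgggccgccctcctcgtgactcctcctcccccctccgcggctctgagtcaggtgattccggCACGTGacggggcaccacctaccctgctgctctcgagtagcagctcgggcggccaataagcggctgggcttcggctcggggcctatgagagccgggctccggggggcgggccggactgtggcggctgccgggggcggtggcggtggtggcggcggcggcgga
FNIP1: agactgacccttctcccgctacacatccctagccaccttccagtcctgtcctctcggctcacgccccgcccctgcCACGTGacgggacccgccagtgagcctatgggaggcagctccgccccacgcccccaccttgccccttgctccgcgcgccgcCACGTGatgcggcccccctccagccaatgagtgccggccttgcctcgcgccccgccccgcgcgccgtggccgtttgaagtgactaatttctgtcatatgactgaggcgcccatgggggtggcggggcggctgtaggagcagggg
FNIP2: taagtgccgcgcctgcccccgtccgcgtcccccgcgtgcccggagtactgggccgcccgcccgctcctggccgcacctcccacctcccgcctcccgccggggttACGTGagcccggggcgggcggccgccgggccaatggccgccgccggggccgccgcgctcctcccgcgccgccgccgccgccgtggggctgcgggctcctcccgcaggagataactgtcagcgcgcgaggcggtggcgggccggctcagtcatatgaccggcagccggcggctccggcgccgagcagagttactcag
DDIT4: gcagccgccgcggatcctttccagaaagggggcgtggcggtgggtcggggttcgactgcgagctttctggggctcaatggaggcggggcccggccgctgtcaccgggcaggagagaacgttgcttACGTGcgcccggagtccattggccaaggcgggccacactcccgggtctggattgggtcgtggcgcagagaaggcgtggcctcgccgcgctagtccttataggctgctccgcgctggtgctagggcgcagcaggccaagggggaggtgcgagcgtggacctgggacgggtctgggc

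Where ACGTG was read on both strands at the same place, the capitals spell the palindrome CACGTG, the E-box that TFEB and TFE3 recognise. It lay at position -112 from the start site in RRAGC and at -175 and -94 in FNIP1. RefSeq windows were matched for 8 of the 10 genes, 11 windows in all, and RRAGD and DEPTOR had no entry. CACGTG was found in 2 of the 11 windows, against 7.26% of all 35116 windows of the same length. ACGTG, the core of the hypoxia response element, which every CACGTG also contains, was found in 4 of the 11 windows, against 21.4% of all windows. Outside RRAGC and FNIP1 it lay at -125 in DDIT4 and at -146 in FNIP2. TGACNNNGC, the core of the antioxidant response element, was present in 3 of the 11 windows, against 13.3% of all windows. It lay in RRAGC, where it overlaps the end of the E-box, and in FNIP2 and SESN1. The ATF4-type element TGATGNAA (3.62% of all windows), the longer E-box TCACGTGA (0.98%), the FOXO site GTAAACA (3.42%) and the heat shock element GAANNTTC (6.77%) were found in 0 of the 8 genes. The 4 windows shown had 69.7% to 79.3% of G and C bases, against a median of 58.7% over all windows. The part of this in the matches was not tested. These matches describe letters within the windows and not binding sites.

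Of the 9 genes that reached a mean of 1 FPKM (fragments counted per kilobase of a gene's length and relative to all reads of its library), 5 fell and 4 rose with carfilzomib, with every sestrin and DDIT4 among those that fell and every folliculin complex gene among those that rose. SESN1, SESN2, SESN3, DDIT4 and RRAGD were lower, at 35.9% to 76.1% of their DMSO level, and RRAGC, FLCN, FNIP1 and FNIP2 were higher, by 1.10 to 1.78 times. All 9 passed the test, limma on log2(FPKM + 1) with an adjusted p under 0.05. The response of this transcriptome was wide, so this count says little on its own: of all 11153 genes tested, 81.6% passed, 44.9% lower and 36.7% higher. That split depends on the scaling: median-of-ratios scaling gave 4418 genes lower and 4652 higher, and quantile normalization 4543 and 4546, against 5007 and 4089 as deposited. The groups did not overlap in any of the 9, against 82.8% of all tested genes. The median log2 difference was -0.37 over the 9 genes and -0.07 over all genes. DEPTOR, the tenth gene, lay under the filter.

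The libraries held 38386581 to 39651170 reads, and the 9 tested genes had 274 to 6693 reads in each. The hepatocyte and hepatocellular carcinoma markers ALB, AFP, TTR, APOA1, APOB, SERPINA1, FGB and TF were all expressed. Their summed level was 9670 to 9844 FPKM with DMSO and 4102 to 4239 with carfilzomib. AFP alone was at 4276 to 4329 FPKM with DMSO and 1855 to 1879 FPKM with carfilzomib. The summed level of 5 markers of other cell types was 9.82 to 10.5 FPKM and 6.33 to 7.00 FPKM. Of these the leukocyte gene PTPRC and the bile duct gene KRT7 were at 0 to 0.0685 FPKM in every library, and the endothelial gene PECAM1 and the collagen gene COL1A2 made up most of the rest. The part of these shifts in the results was not tested. In RNA from a whole culture, fewer cells expressing a gene and less RNA per cell cannot be told apart, and a level is relative to all reads of a library. The labels do not tell whether replicate libraries stem from separate cultures, and p-values therefore cover only the spread among these libraries, which may be technical.

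**Figure D1:**
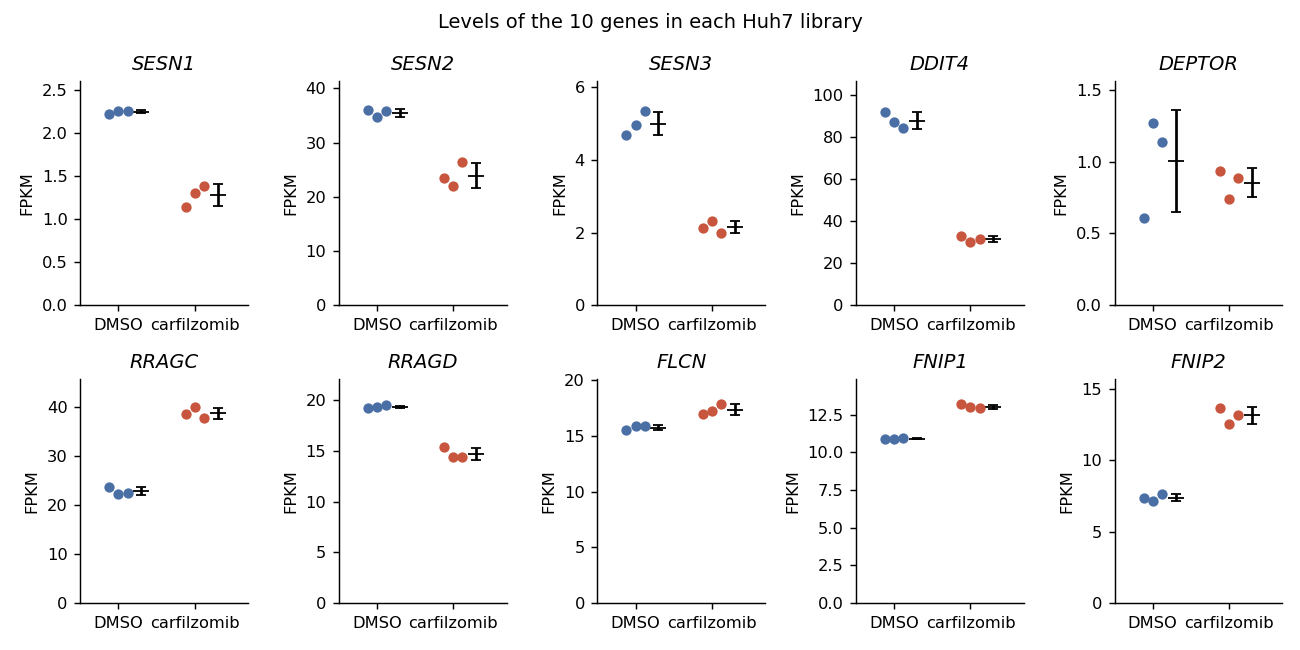
FPKM of each of the 10 genes (vertical axes, from 0) in the 3 DMSO libraries (blue points) and the 3 carfilzomib libraries (red points), with replicates 1 to 3 from left to right and the mean ± SD in black. The groups are apart in 9 genes, and in DEPTOR the carfilzomib points, 0.740 to 0.933 FPKM, lie within the DMSO range of 0.604 to 1.27.

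All 3 sestrin genes fell. SESN2, the leucine-binding sestrin and the most abundant of the family in these cells, had 35.9, 34.7 and 35.9 FPKM in the DMSO libraries and 23.5, 21.9 and 26.4 FPKM with carfilzomib. Every carfilzomib value was below every DMSO value, and the treated libraries were the more spread, with replicate 3 the highest. The means were 35.5 ± 0.719 and 23.9 ± 2.27 FPKM (SD, n = 3), and the log2 difference was -0.55 with an SE of 0.0580 (limma, adjusted p = 9.31e-06).

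SESN3, known as a FOXO target, fell from 4.70, 4.96 and 5.34 FPKM to 2.12, 2.32 and 2.00 FPKM. The lowest DMSO value was above 2 times the highest carfilzomib value, and the log2 difference was -0.93 (SE 0.0644, adjusted p = 4.09e-07 by limma). SESN1, which like SESN2 restrains GATOR2, was the scarcest sestrin, at 2.23, 2.27 and 2.26 FPKM with DMSO and 1.15, 1.30 and 1.39 FPKM with carfilzomib. The DMSO libraries were nearly equal and the treated ones all lower, at 56.9% of the DMSO mean, with a log2 difference of -0.51 with an SE of 0.0655 (limma, adjusted p = 4.13e-05). On the log2(FPKM + 1) scale the changes of SESN1 and SESN3 are understated because both are low, and with a pseudocount of 0.1 the log2 differences were -0.77 and -1.18.

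The sestrins together summed to 42.7 ± 0.805 FPKM with DMSO and 27.3 ± 2.18 FPKM with carfilzomib (SD, n = 3). SESN2 made up 83.0 ± 0.709% of this sum with DMSO and 87.4 ± 1.44% with carfilzomib, and SESN3 11.7 ± 0.676% and 7.91 ± 1.19%. The ratio of SESN2 to SESN3 went from 7.65, 6.99 and 6.71 in the DMSO libraries to 11.1, 9.44 and 13.2 with carfilzomib, so the groups did not overlap. With DMSO and carfilzomib, SESN2 to SESN1 was 15.8 ± 0.420 and 18.7 ± 1.83, and SESN3 to SESN1 was 2.22 ± 0.130 and 1.69 ± 0.221. For these ratios and that of SESN2 to SESN3, an exact permutation test (two-sided) gave p = 0.1. This is the smallest value that this test can give for 3 against 3 libraries. The value was also 0.1 after adjustment over the 5 ratios compared. The ratios that involve SESN2 depend on how low values are treated: adding 5 FPKM to each value turned the change in log2 ratio from 0.25 to -0.28 for SESN2 to SESN1 and from 0.65 to -0.00366 for SESN2 to SESN3.

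DDIT4 had the largest log2 difference of the 9 tested genes. It had 92.2, 87.2 and 84.1 FPKM with DMSO and 32.7, 30.1 and 31.7 FPKM with carfilzomib, every treated value being far below the DMSO values. The means of 87.8 ± 4.06 and 31.5 ± 1.34 FPKM (SD, n = 3) differed 2.79 times, and the log2 difference was -1.45 with an SE of 0.0428 (limma, adjusted p = 1.06e-09). DDIT4 was the only one of the 9 tested genes to fall or rise by at least 2-fold on this scale. Of all tested genes, 13.1% reached such a change, 7.84% fell that far and 2.76% had a lower difference than DDIT4. SESN3 also reached 2-fold with a pseudocount of 0.1 (-1.18), after rescaling to TPM (-1.06) and with limma-voom (-1.22). Its means of plain FPKM differed 2.33 times. DDIT4L, a close relative of DDIT4 that also inhibits mTORC1, was barely detected, with 0 to 10 reads per library (0 to 0.0970 FPKM).

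DEPTOR, which binds mTOR directly and inhibits it, was the least abundant of the 10. It had 0.604, 1.27 and 1.14 FPKM with DMSO, on 61, 129 and 116 reads, and 0.933, 0.740 and 0.886 FPKM with carfilzomib, on 94, 73 and 89 reads. DMSO replicate 1 was the lowest of all 6 libraries and the other DMSO libraries were the highest, so the groups overlapped. Its mean of 0.928 FPKM kept it out of the test, and when genes of any level were tested its log2 difference was -0.10 (adjusted p = 0.556 by limma). A change in DEPTOR was therefore not detectable here, with a spread of 35.1% of the mean among the DMSO libraries.

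The Rag GTPase genes RRAGC and RRAGD moved in opposite directions. RagC and RagD are alternative partners of RagA and RagB. RRAGC rose from 23.7, 22.2 and 22.5 FPKM with DMSO to 38.5, 39.9 and 37.7 FPKM with carfilzomib, a gap between groups far wider than the spread within either. The log2 difference was 0.74 (SE 0.0378, adjusted p = 4.33e-08 by limma). RRAGD, known as a strongly induced target of TFEB and TFE3 in other cells, fell from 19.2, 19.3 and 19.5 FPKM to 15.4, 14.4 and 14.4 FPKM. The DMSO values were almost the same and all treated values were lower, with a log2 difference of -0.37 with an SE of 0.0385 (limma, adjusted p = 8.43e-06).

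The ratio of RRAGD to RRAGC was 0.812, 0.868 and 0.869 with DMSO and 0.399, 0.361 and 0.382 with carfilzomib. Every treated ratio was less than the lowest DMSO ratio, a change in log2 ratio of -1.16 (SE 0.0533, exact two-sided permutation p = 0.1, the smallest possible, n = 3 in each group). RRAGC thus made up 54.1 ± 0.973% of the summed FPKM of RRAGC and RRAGD with DMSO and 72.4 ± 1.01% with carfilzomib. The sum itself went from 42.2 ± 0.714 to 53.4 ± 1.23 FPKM. The partner genes RRAGA and RRAGB summed to 30.4 ± 0.323 and 29.0 ± 0.630 FPKM.

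RRAGA, the main partner gene, was at 27.8 ± 0.133 and 25.9 ± 0.894 FPKM, a log2 difference of -0.10 (adjusted p = 0.0226 by limma). It did not pass after median-of-ratios scaling (-0.01), with rescaling to TPM (-0.06), with limma-voom on reads (-0.10), without carfilzomib replicate 1 (-0.10) and without carfilzomib replicate 2 (-0.08). RRAGB was at 2.57 ± 0.336 and 3.13 ± 0.286 FPKM, with overlapping groups and a log2 difference of 0.21 (adjusted p = 0.0355 by limma). RRAGB did not pass without DMSO replicate 1 (0.20), DMSO replicate 3 (0.15), carfilzomib replicate 1 (0.19) or carfilzomib replicate 2 (0.18), nor with no filter or with limma-voom.

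**Figure D2:**
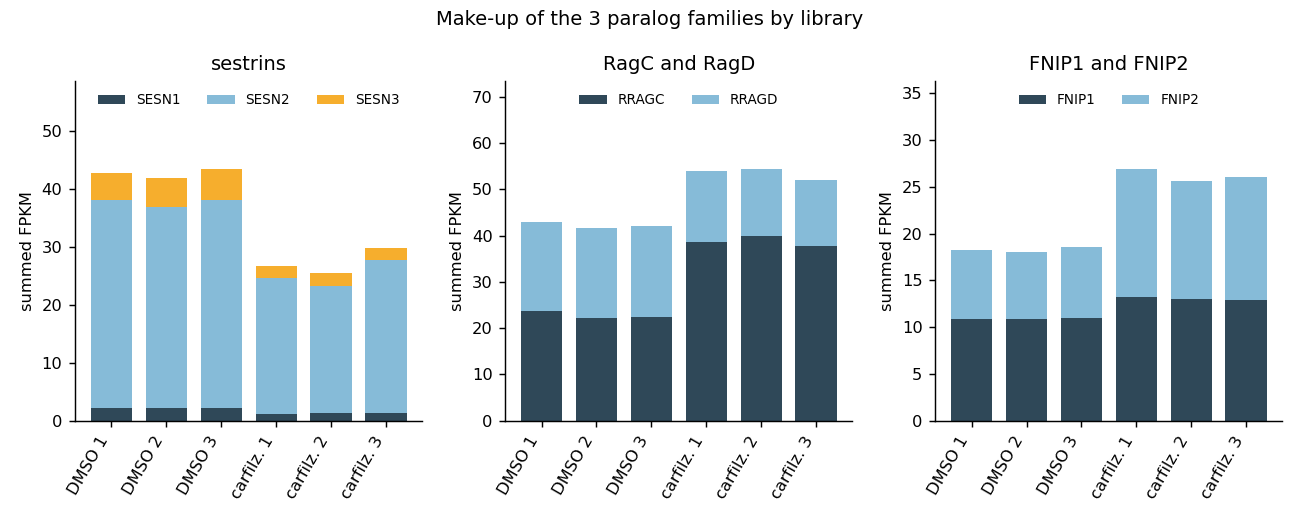
Summed FPKM (vertical axes, from 0) of SESN1, SESN2 and SESN3, of RRAGC and RRAGD, and of FNIP1 and FNIP2 in each of the 6 libraries, with each gene's own FPKM as a coloured block. The sestrin sum is 41.9 to 43.5 FPKM with DMSO and 25.5 to 29.8 FPKM with carfilzomib, while the Rag sum is 41.5 to 42.9 and 52.0 to 54.4 FPKM and the FNIP sum 18.02 to 18.6 and 25.6 to 26.9 FPKM.

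The 3 genes of the folliculin complex rose, by 1.10 times for FLCN, 1.19 times for FNIP1 and 1.78 times for FNIP2. FNIP2 went from 7.38, 7.14 and 7.64 FPKM with DMSO to 13.7, 12.6 and 13.2 FPKM with carfilzomib, with no overlap (log2 difference 0.76, SE 0.0464, adjusted p = 1.70e-07 by limma). Its paralog FNIP1, which forms the same kind of complex, rose from 10.89, 10.88 and 10.93 FPKM to 13.2, 13.0 and 12.9 FPKM. The DMSO values were nearly identical and every treated value was above them (log2 difference 0.24, SE 0.0364, adjusted p = 1.62e-04 by limma). FLCN itself had 15.5, 15.9 and 15.9 FPKM with DMSO and 17.0, 17.3 and 17.9 FPKM with carfilzomib. This is the smallest difference among the 9 tested genes, 0.13 on the log2 scale (SE 0.0364, adjusted p = 0.00666 by limma), and 81.9% of all tested genes had a larger absolute difference. It was 0.22 after median-of-ratios scaling.

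The FNIP2 to FNIP1 ratio was 0.677, 0.656 and 0.699 with DMSO and 1.04, 0.969 and 1.02 with carfilzomib. The groups did not overlap, and the log2 ratio changed by 0.58 (SE 0.0405, exact two-sided permutation p = 0.1, the smallest possible, n = 3 in each group). FNIP1 made up 59.6 ± 0.758% of the summed FPKM of the pair with DMSO and 49.8 ± 0.925% with carfilzomib. Its DMSO level was the higher only per length, since FNIP2 had more reads there (3519 to 3770 against 2860 to 2895). The sum of both was 18.3 ± 0.275 and 26.2 ± 0.663 FPKM (SD, n = 3).

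**Figure D3:**
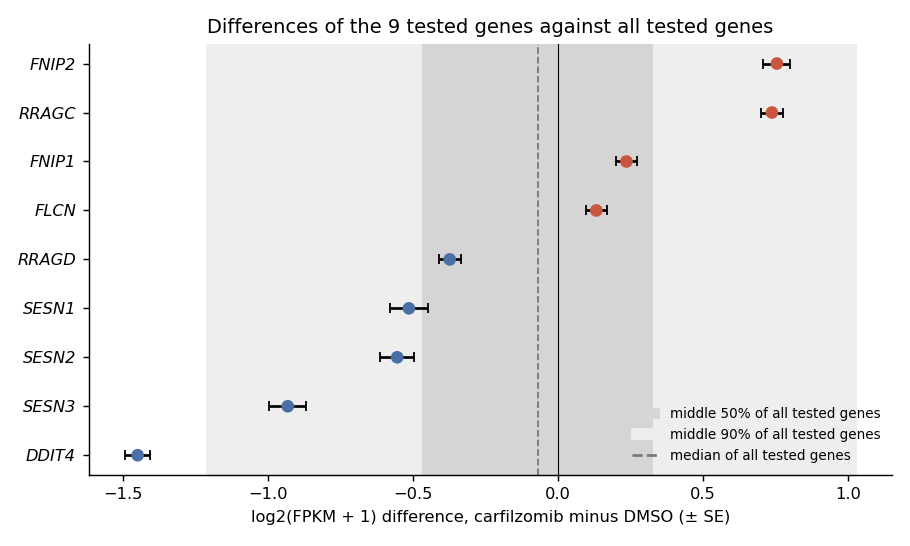
Difference in log2(FPKM + 1), carfilzomib minus DMSO (horizontal axis), with its SE for the 9 tested genes, blue when lower and red when higher. The dark and light bands hold the middle 50% (-0.46 to 0.32) and 90% (-1.21 to 1.03) of all tested genes and the dashed line their median, and only DDIT4 lies outside the wider band.

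These shifts changed the order of levels in FPKM, which is per length. An order between genes rests on the gene lengths behind the table, whose build is unclear. With DMSO the order was DDIT4, SESN2, RRAGC, RRAGD, FLCN, FNIP1, FNIP2, SESN3, SESN1 and DEPTOR, and the values of no neighbouring pair overlapped. With carfilzomib RRAGC came first at 38.7 ± 1.15 FPKM, above DDIT4 at 31.5 ± 1.34 and SESN2 at 23.9 ± 2.27. FLCN, at 17.4 ± 0.452 FPKM, was then above RRAGD at 14.7 ± 0.569, and FNIP1 and FNIP2, at 13.0 ± 0.137 and 13.2 ± 0.565 FPKM, overlapped.

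The other genes of the pathway did not share one direction. Of 96 tested genes in 9 lists of complexes, inputs and targets, 43 rose, 41 fell and 12 did not pass (87.5% called, against 81.6% of all genes), with a median log2 difference of 0.06. The split moved with the scaling, to 50 higher and 33 lower under median-of-ratios scaling and to 47 and 36 after rescaling to TPM, which gives every library the same sum. Among 10 subunits and assembly factors of the mTOR complexes, 4 rose and 5 fell (median -0.10). MTOR, the kinase, went from 22.8 ± 0.614 to 19.3 ± 1.22 FPKM and MLST8, a subunit of both complexes, from 14.6 ± 0.630 to 6.91 ± 0.169 FPKM (log2 difference -0.98), as PRR5, a subunit of mTORC2, also fell (-0.53). RPTOR, the scaffold of mTORC1, rose from 7.92 ± 0.390 to 12.4 ± 0.395 FPKM (0.59) and RICTOR, that of mTORC2, from 15.5 ± 0.719 to 24.0 ± 1.42 FPKM (0.60).

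On the route through which DDIT4 acts, all 4 tested genes of the TSC complex and RHEB rose (median 0.53), where 36.7% of all tested genes rose and the median was -0.07. TSC1, the stabilising subunit, went from 8.31 ± 0.458 to 11.96 ± 0.244 FPKM, RHEB from 35.3 ± 1.10 to 53.1 ± 2.39 FPKM and its relative RHEBL1 from 1.66 ± 0.401 to 3.54 ± 0.150 FPKM. TSC2, the subunit that inactivates RHEB, had the smallest difference, from 6.05 ± 0.120 to 6.66 ± 0.219 FPKM (log2 difference 0.12, adjusted p = 0.0357 by limma). TSC2 did not pass with the replicate number as a block (0.12, limma adjusted p = 0.0587), nor when DMSO replicate 1 (0.11), DMSO replicate 3 (0.12), carfilzomib replicate 2 (0.13) or carfilzomib replicate 3 (0.10) was left out.

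Among the complexes that relay amino acid signals, the GATOR and KICSTOR genes had 3 higher and 7 lower of 12 (median -0.24). Of all tested genes, 36.7% were higher and 44.9% lower, with a median of -0.07. ITFG2 and KPTN, both among the 7, kept their calls in 8 and 15 of 16 alternatives. GATOR1 turns off RagA and RagB, and its subunits NPRL3 (8.88 ± 0.169 to 5.12 ± 0.283 FPKM) and NPRL2 (9.42 ± 0.233 to 6.47 ± 0.172 FPKM) fell. The subunits of GATOR2, which sestrins bind, split: SEC13 rose from 103.7 ± 1.85 to 163 ± 4.34 FPKM and WDR24 from 3.29 ± 0.290 to 5.21 ± 0.229 FPKM, whereas MIOS (log2 difference -0.44) and SEH1L (-0.28) fell. SEC13 and SEH1L also belong to the nuclear pore. The remaining GATOR2 subunit WDR59 was at 11.5 ± 0.526 and 11.2 ± 0.256 FPKM (log2 difference -0.04, adjusted p = 0.413 by limma). Of 11 tested Rag partners, Ragulator subunits and amino acid sensors, 5 rose and 5 fell (median -0.10). The Ragulator genes LAMTOR4 (38.3 ± 4.83 to 25.4 ± 2.26 FPKM) and LAMTOR2 (46.6 ± 0.815 to 34.2 ± 1.36 FPKM), part of the anchor of the Rag proteins, fell most. Ragulator split, since LAMTOR3 and LAMTOR5 rose by 0.32 and 0.21 on the log2 scale. LAMTOR1 fell by 0.17 but did not pass after median-of-ratios scaling. The sensor genes BMT2, which encodes the S-adenosylmethionine sensor SAMTOR, and CASTOR2, of the arginine sensor family, rose by 0.46 and 0.34 on the log2 scale.

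AMPK, the energy sensor that restrains mTORC1 and that sestrins are known to bind, and its activating kinase complex were represented by 9 genes, of which 3 rose and 4 fell (median 0.08). The catalytic subunit PRKAA1 fell from 63.7 ± 1.40 to 38.2 ± 0.633 FPKM and STK11, which encodes the activating kinase LKB1, from 23.8 ± 0.544 to 15.5 ± 0.660 FPKM, while PRKAB2 and PRKAG2, a scaffold and a nucleotide-binding subunit, rose 2.00 and 1.88 times. Of 12 tested genes of insulin and AKT signalling, 4 rose and 8 fell (median -0.15), where 36.7% of all tested genes rose and 44.9% fell. The adaptor IRS1 fell from 29.2 ± 0.722 to 17.3 ± 0.658 FPKM and IRS2 rose from 3.74 ± 0.262 to 7.86 ± 0.352 FPKM. IGF1R, the receptor, rose 1.99 times, and PIK3R2, a regulatory subunit of PI3 kinase, fell from 49.2 ± 1.25 to 22.1 ± 0.607 FPKM (log2 difference -1.12).

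Downstream of mTORC1, 4 of 14 tested substrates and effectors rose, 5 fell and 5 did not pass (median 0.03). RPS6KB2, an S6 kinase, fell from 86.4 ± 2.96 to 49.0 ± 0.399 FPKM and EIF4EBP2, a translational repressor, from 39.8 ± 0.728 to 27.9 ± 0.954 FPKM. LPIN1, a phosphatidate phosphatase, rose from 3.47 ± 0.260 to 6.50 ± 0.116 FPKM and GRB10, an adaptor that dampens insulin signalling, from 8.81 ± 0.225 to 13.8 ± 0.491 FPKM. These are transcript levels, and phosphorylation by mTORC1 was not measured.

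**Figure D4:**
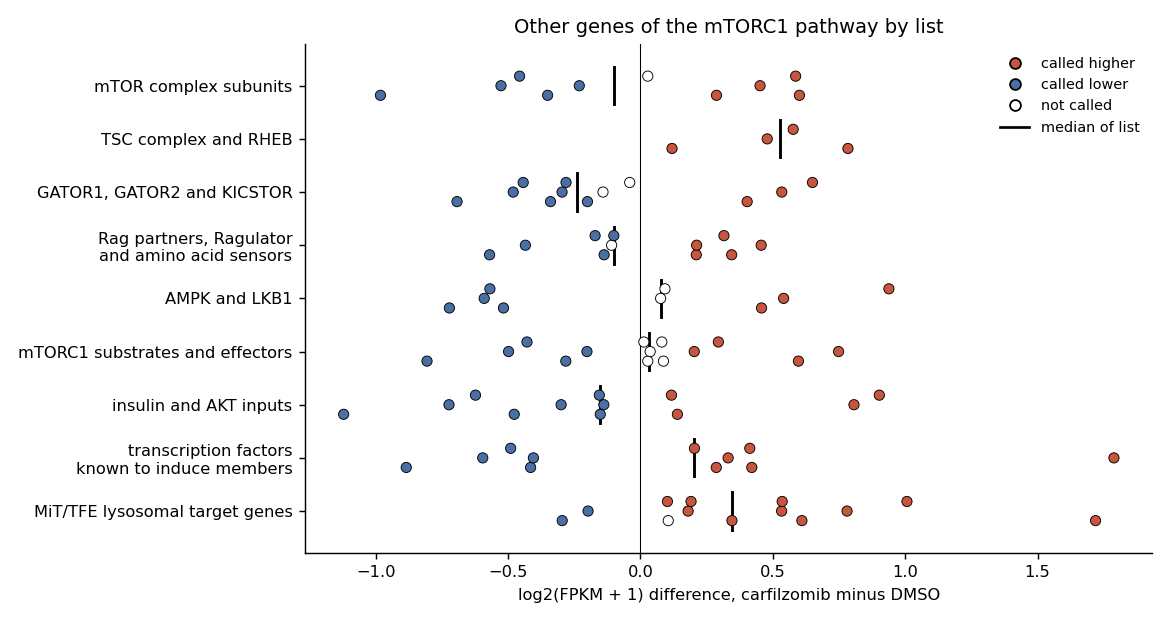
Difference in log2(FPKM + 1), carfilzomib minus DMSO (horizontal axis), of each tested gene in the 9 lists (rows), red when called higher, blue when called lower and white when not called, with the median of each list as a black bar. The medians run from -0.24 for GATOR1, GATOR2 and KICSTOR to 0.53 for the TSC complex and RHEB, and most lists hold genes on both sides of 0.

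The genes of transcription factors known to induce the sestrins, DDIT4 or the Rag and folliculin genes also moved both ways, 6 of 11 higher and 5 lower (median 0.20). These are transcript levels, and the protein amount and activity of the factors were not measured. ATF4, the factor of the integrated stress response, rose from 48.5, 50.9 and 49.2 FPKM to 65.1, 68.8 and 66.1 FPKM (log2 difference 0.42, adjusted p = 1.10e-06 by limma), while its targets SESN2 and DDIT4 were lower in the same libraries. TP63, a transcription factor of stratified epithelia, rose from 0.352 ± 0.0727 to 3.67 ± 0.223 FPKM, a 10.4-fold ratio of means. TP63 reached the filter through its carfilzomib values, and its log2 difference of 1.79 is understated because its DMSO level is low and ran from 0.70 to 3.39 across the alternatives. NFE2L2, which encodes NRF2, a known inducer of SESN2, fell from 163 ± 3.89 to 107 ± 2.19 FPKM (-0.60).

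FOXO3 fell from 7.93 ± 0.642 to 5.34 ± 0.152 FPKM and FOXO1 rose from 2.06 ± 0.162 to 2.85 ± 0.240 FPKM, and the FOXO target SESN3 fell. TFE3 rose from 45.5 ± 0.832 to 55.7 ± 1.34 FPKM (log2 difference 0.29), whereas TFEB was at 0.252 ± 0.0600 and 0.200 ± 0.0276 FPKM and was not tested. Among 13 tested lysosomal and autophagy genes known as targets of these factors, 10 rose and 2 fell (median 0.35), against 36.7% of all tested genes higher, 44.9% lower and a median of -0.07. GLA, alpha-galactosidase, rose from 48.5 ± 2.60 to 162 ± 7.49 FPKM, and SQSTM1, the autophagy receptor p62, rose 2.01 times, whereas TPCN1, a lysosomal channel, and NEU1, a sialidase, fell by 0.30 and 0.20 on the log2 scale.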

How the data were processed

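Gene levels are FPKM values as deposited by the authors in 1 table with a column per library; its build is unclear, since the submitters' processing notes name the mouse build GRCm39 beside human symbols, so no gene coordinates are taken from it. Per the submitters' processing notes, fastp, HISAT2, HTSeq, R 3.2.0 and DESeq2 were used, without their role, and per the labels' protocols libraries were made with a stranded mRNA kit. The test used limma 3.58.1 in R 4.3.3 with a trended prior variance on log2(FPKM + 1) of the 11153 genes whose mean over all 6 libraries reached 1 FPKM. Tests were two-sided, p-values were adjusted over these genes by Benjamini-Hochberg, and calls are adjusted p under 0.05. Values are means ± SD. Whole reads were recovered from the FPKM ratios in 99.98% of rows (relative tolerance 1e-10 in the ratios) and give the depth; the smallest whole solution was taken. The fit and the recovery were tested on simulated data. Replicate libraries were further apart than counting noise (chi-square per degree of freedom 3.66 to 6.87), so none was counted as a repeat. Ratios of paralogs were compared by an exact permutation test over the 20 label assignments.

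The genes and the 9 lists were chosen with earlier results of these data known. Named from each list were the 2 genes called highest and the 2 called lowest by log2 difference, with direct partners of the 10 genes and inducing factors, of which 1 is not reported here; DDIT4L was named outside this rule, after its values were seen. Promoter windows are RefSeq's on GRCh38.p14. The alternatives were other pseudocounts, filters, scalings, variance models, a replicate block, limma-voom on recovered reads, and each library left out.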

Additional observations from a re-analysis of the deposited data

How the results depend on the processing

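Each of the 9 tested genes kept its direction and its call in every alternative in which it passed the filter, 16 for SESN1 and SESN3 and 17 for each of the others. With a mean of at least 5 FPKM, fewer genes were tested by construction: 3 members were then called lower, since SESN1 and SESN3 dropped out, and 3246 genes in all. The log2 difference of SESN1 ran from -0.82 to -0.21 and that of SESN3 from -1.22 to -0.48 across the alternatives. A pseudocount of 5 also reversed the change in the log2 ratio of SESN2 to SESN1 (-0.28) and of SESN2 to SESN3 (-0.00366), because it outweighs the low SESN1 and SESN3. Median-of-ratios scaling moved the median of all genes from -0.07 to 0.01, and under it and quantile normalization WDR59, not called, changed sign (0.0439 and 0.0230). Over the libraries left out in turn, 8799 to 8956 genes and 78 to 84 pathway genes were called. With the replicate block 9054 genes, 83 pathway genes and all 9 members were called, and TSC2 alone of the named genes lost its call; same-numbered libraries did not deviate together (correlations -0.0121, -0.00341 and 0.0126), so the numbers are not taken as a pairing. DEPTOR had 61 to 129 reads per library, and its spread of 35.1% of the mean among the DMSO libraries limits what could be detected.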
